A study of Arabidopsis thaliana with 12 samples.

Results

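Nitrogen depletion in leaves of Arabidopsis thaliana Col-0, the reference accession, was followed by sequencing of poly(A) RNA in 6 libraries, 3 taken at day 0 and 3 at day 2. They were chosen by their genotype and time labels from the 12 libraries of the series, the other 6 of which come from the mutant npf8.4-1 sampled on the same days. All plants were raised in hydroponic culture on 5 mM KNO3 for 15 days under 16 h of light and 8 h of darkness. Day 0 leaves were harvested then, and day 2 leaves after a further 2 days on a medium without nitrogen; the labels do not say what replaced the KNO3. Every library is a pool of young leaves from 15 plants, so p-values measure the spread between pools. The day 2 harvest came 2 days later in growth, and nitrogen-fed plants of the same age were not analysed here, so depletion and age cannot be told apart. The Col-0 libraries held 28761674 to 33547512 reads in exons.

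Leaves are the main nitrogen store of a vegetative plant. Most of that nitrogen sits in chloroplast proteins and in ribosomes, and a plant cut off from nitrate lives on internal stores, by breaking down proteins, nucleic acids and stored compounds and sending amino acids and ureides to growing organs. Making proteins, nucleotides and chlorophyll consumes nitrogen, whereas walls, waxes and flavonoids are built mainly from carbon.

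Of 37242 genes in the tables, 19416 passed the filter on low counts. The edgeR quasi-likelihood test with Benjamini-Hochberg adjustment called 11659 genes at an adjusted p under 0.05, which is 60.0% of those tested. Of these, 5753 (29.6%) were higher and 5906 (30.4%) were lower at day 2, and for 11312 the 3 libraries of one day all lay above the 3 of the other. The median log2 fold change over all tested genes was 0.02. Sizes were unequal between directions. At least 2-fold changes numbered 1988 upward (10.2%) and 2442 downward (12.6%), at least 4-fold changes 642 and 428, and at least 8-fold changes 258 and 51. Changes of at least 32-fold were found for 57 genes upward and 7 downward. Decreases were thus more numerous among moderate changes and increases among large ones.

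**Figure D1:**
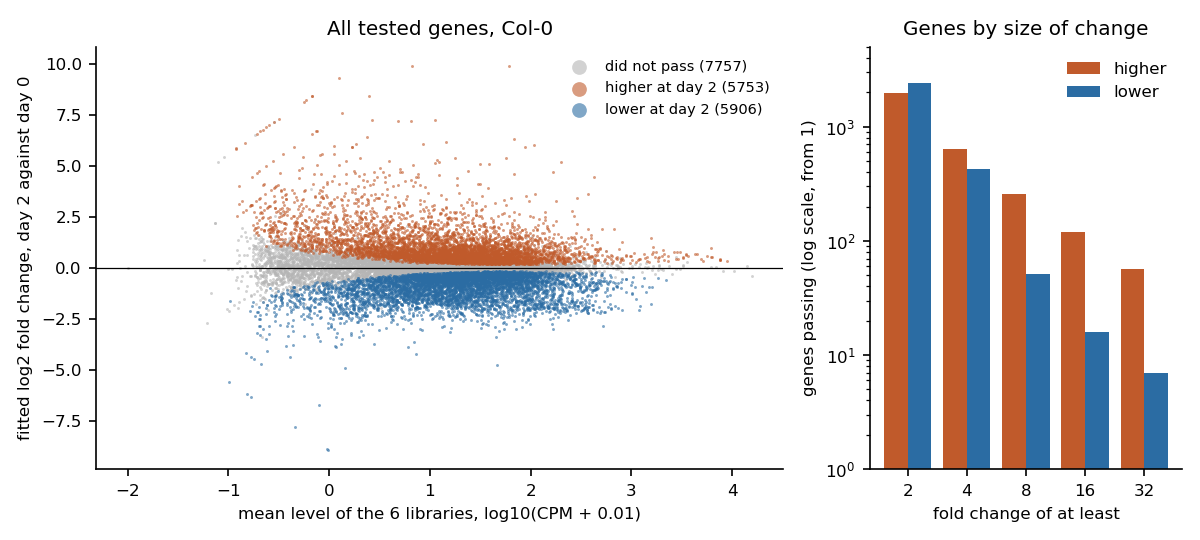
Left, fitted log2 fold change (day 2 against day 0) of every tested gene against its mean level in the 6 Col-0 libraries, as log10 of CPM plus 0.01; colours mark genes higher, lower or not passing. Right, number of genes that passed at each minimum fold change, on a log axis that starts at 1. The 2 directions are near equal in number, 5753 and 5906, while the largest changes are upward.

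The 6 libraries split by day. The first principal component of their log2 levels carried 80.9% of the variance, with the day 0 libraries at −56.1, −65.6 and −80.4 and the day 2 libraries at 82.3, 67.6 and 52.2. The second component carried 7.06%, and day 2 replicate 3 stood apart on it at −39.9. Over the 4430 genes changed at least 2-fold, day 2 replicate 3 was the day 2 library nearest to day 0 for 62.3% of genes, and day 0 replicate 1 was the day 0 library nearest to day 2 for 63.1%. Leaf mesophyll markers made up 7.28% to 8.48% of reads at day 0 and 6.95% to 9.38% at day 2, the highest share being that of day 2 replicate 3. Of those 12 markers 2 rose and 10 did not pass (median 0.06; the sign turns when a library is left out). Root markers were near absent, with 4 of 13 above the filter and summed shares of 0.000671% to 0.000861% of reads at day 0 and 0.000570% to 0.000978% at day 2. Flower, pollen and seed markers held 0.000165% to 0.000239% of reads over all 6 libraries, with 2 of 15 above the filter. In whole leaves, fewer cells of a type and less RNA per cell cannot be told apart. With genes split by expression into 5 equal bins, 34.4% changed at least 2-fold in the lowest bin and 21.2% in the highest. Most calls, 5619 higher and 5807 lower, were of 18814 protein-coding genes, and of 258 tested long noncoding RNAs 55 rose and 39 fell.

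Weighed by read counts, most of the largest gains were in abundant photosynthesis mRNAs and most of the largest losses in translation and folding factors. Levels are counts per 1000000 scaled reads (CPM), which do not correct for transcript length. Called genes that rose gained 163726 CPM in all and the sum over those that fell was −194277 CPM, with the 12 largest gains adding up to 26178 CPM and the 12 largest losses to −13191 CPM. Most of the large gains were light-harvesting and photosystem I genes. LHB1B2, an antenna protein of photosystem II (AT2G34420, chromosome 2, 14522524 to 14523568), stood at 4884, 4052 and 3387 CPM at day 0 and 7961, 5164 and 11136 CPM at day 2 (log2 fold change 0.98 with SE 0.24, edgeR adjusted p = 0.00343). Its day 2 libraries differed more than 2-fold among themselves, with replicate 3 the highest, but did not overlap with day 0. LHCA3, an antenna protein of photosystem I, stood at 5652, 5096 and 4544 CPM at day 0 and 7382, 7244 and 7753 CPM at day 2 (0.55 with SE 0.12, edgeR adjusted p = 0.0012). TGG1, a myrosinase that cuts glucosinolates, rose from 4566 ± 229 to 6748 ± 339 CPM (SD, n = 3; 0.56 with SE 0.10, edgeR adjusted p = 0.000247), and CAT3, a peroxisomal catalase, rose from 3258 ± 220.3 to 5254 ± 358 CPM (0.69 with SE 0.11, edgeR adjusted p = 0.000124). These groups did not overlap. Further values in brackets are log2 fold changes with their SE, and ± marks the SD of 3 libraries. Reads of antenna genes can be shared with close paralogs, and smaller rises among them were less firm: LHCB3 (0.35, SE 0.12) and LHCA1 (0.37, SE 0.13) no longer passed when day 0 replicate 2 was left out (adjusted p = 0.0688 and 0.0624) or day 0 replicate 3 (0.0814 and 0.0851). With a replicate block in the fit of the 6 Col-0 libraries, PSAF, LHCA4 and LHCB5 did not pass either (edgeR adjusted p = 0.0562, 0.104 and 0.143). LHCA1 and LHCB3 did not pass under that block (0.171 and 0.180).

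The losses were headed by factors that make and fold proteins. AT5G60390, a translation elongation factor 1-alpha gene (chromosome 5, 24288596 to 24291020), stood at 2393, 2501 and 2421 CPM at day 0 and 584, 655 and 882 CPM at day 2 (log2 fold change −1.79 with SE 0.18, edgeR adjusted p = 3.57e-06). Its reads may be shared with near-identical copies. LOS1, translation elongation factor 2, stood at 1619.6, 1691 and 1691 CPM at day 0 and 508, 570.2 and 644 CPM at day 2 (−1.54 with SE 0.12, edgeR adjusted p = 5.51e-07). CPN60A and CPN60B, subunits of the chloroplast chaperonin that folds Rubisco, fell from 1290.0 ± 23.8 to 310.4 ± 66.6 CPM and from 1924 ± 73.4 to 532 ± 122 CPM. CP29, which binds chloroplast mRNAs, fell from 1936 ± 193 to 463 ± 208 CPM (−2.06 with SE 0.33, edgeR adjusted p = 0.000275), with day 2 replicate 3 the highest of its day. The chloroplast elongation factors RABE1b (−0.95, SE 0.11) and emb2726 (−1.29, SE 0.14), the cytosolic chaperone HSC70-1 (−0.96, SE 0.18) and the ribosomal protein L3 gene RP1 (−1.97, SE 0.17) fell as well. PORB, a light-dependent enzyme of chlorophyll synthesis, fell by 0.60 on the log2 scale (SE 0.18, edgeR adjusted p = 0.0133), a call lost without day 2 replicate 1 (adjusted p = 0.0570).

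Several of the most abundant leaf mRNAs did not pass. RBCS1A, the main small subunit of Rubisco, stood at 18844, 18126 and 16545 CPM at day 0 and 10828, 11763 and 17911 CPM at day 2 (log2 fold change −0.40 with SE 0.18, edgeR adjusted p = 0.0692). The third day 2 library overlapped with day 0 and the other 2 lay below it. RBCS1A passed as lower when day 2 replicate 3 was left out (log2 fold change −0.62, adjusted p = 0.00191) and with scaling by library totals (−0.37, adjusted p = 0.0289). The antenna genes CAB1, CAB2 and CAB3 had log2 fold changes of 0.09, −0.17 and 0.02, with edgeR adjusted p of 0.699, 0.423 and 0.95. CAB1 and CAB3 came to −0.12 and −0.20 without day 2 replicate 3. RCA, which reactivates Rubisco, stood at 7823, 6817 and 5743 CPM at day 0 and 7260.2, 6386 and 7089 CPM at day 2 (0.02 with SE 0.14, edgeR adjusted p = 0.895), with its days overlapping. RBCS3B, another Rubisco small subunit, was −0.14 (edgeR adjusted p = 0.438).

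Large rises, taken among genes of at least 5 CPM at day 2, included 2 receptor kinase genes, a cation channel gene, a regulator gene and metabolic genes. WAK1, a receptor kinase that binds wall pectin (AT1G21250, chromosome 1, 7439171 to 7442113), stood at 4.27, 1.89 and 2.27 CPM at day 0 and 197, 204 and 117 CPM at day 2 (log2 fold change 5.95 with SE 0.55, edgeR adjusted p = 9.41e-06). PPDK, pyruvate orthophosphate dikinase, which regenerates phosphoenolpyruvate (AT4G15530, chromosome 4, 8864615 to 8870979), stood at 3.54, 2.61 and 1.70 CPM at day 0 and 151, 102 and 82.0 CPM at day 2 (5.41 with SE 0.43, edgeR adjusted p = 2.7e-06). In both, every day 2 library was more than 20-fold above every day 0 library. CNGC3, a cyclic nucleotide-gated cation channel, stood at 1.36, 0.578 and 0.568 CPM at day 0 and 48.6, 35.7 and 19.3 CPM at day 2 (5.37 with SE 0.54, edgeR adjusted p = 1.48e-05). NLP3, of the NIN-like family to which nitrate-sensing regulators belong, went from 0.194 ± 0.0235 to 7.60 ± 3.31 CPM (5.26 with SE 0.41, edgeR adjusted p = 4.8e-07). Within day 2, CNGC3 was lowest in replicate 3 while NLP3 was highest there. The S-domain receptor kinase gene RK1 (5.29, SE 0.66), the farnesoic acid methyltransferase gene FAMT (5.16, SE 0.99) and AT1G80130, a gene of the tetratricopeptide repeat family (6.17, SE 0.39), also rose.

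Among genes of at least 5 CPM at day 0, a minimum that sets a higher starting level, large decreases were measured for nucleolar and chloroplast proteins. HDA3, a nucleolar histone deacetylase of the plant-specific HD2 class (AT3G44750, chromosome 3, 16297656 to 16299876), went from 126 ± 14.8 to 15.6 ± 3.12 CPM (−3.02 with SE 0.23, edgeR adjusted p = 7.87e-07). FIB2, fibrillarin, which methylates ribosomal RNA in the nucleolus, fell from 65.6 ± 9.38 to 9.25 ± 1.39 CPM (−2.83, SE 0.24), and the arginine methyltransferase gene PRMT1A fell from 28.8 ± 3.02 to 3.69 ± 0.659 CPM (−2.96, SE 0.23). CR88, the chloroplast HSP90 chaperone, stood at 854, 893 and 989.7 CPM at day 0 and 104, 137 and 132 CPM at day 2 (−2.87 with SE 0.17, edgeR adjusted p = 1.01e-07). PDE340, a P-loop nucleoside triphosphatase whose loss causes pigment defects, stood at 273, 304 and 316 CPM at day 0 and 27.8, 34.1 and 49.1 CPM at day 2 (−3.01 with SE 0.26, edgeR adjusted p = 2.33e-06). In HDA3, CR88 and PDE340 the lowest day 0 library lay over 5-fold above the highest day 2 library. PRDA1, which is needed for transcription by the plastid-encoded RNA polymerase (−2.90, SE 0.23), and CS26, the chloroplast S-sulfocysteine synthase (−2.99, SE 0.22), fell too. AT4G36850, a membrane protein with PQ-loop repeats, fell the furthest of these, from 13.7 ± 7.90 to 0.732 ± 0.306 CPM (−4.23, SE 0.61), although its day 0 libraries ran from 5.14 to 20.7 CPM.

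**Figure D2:**
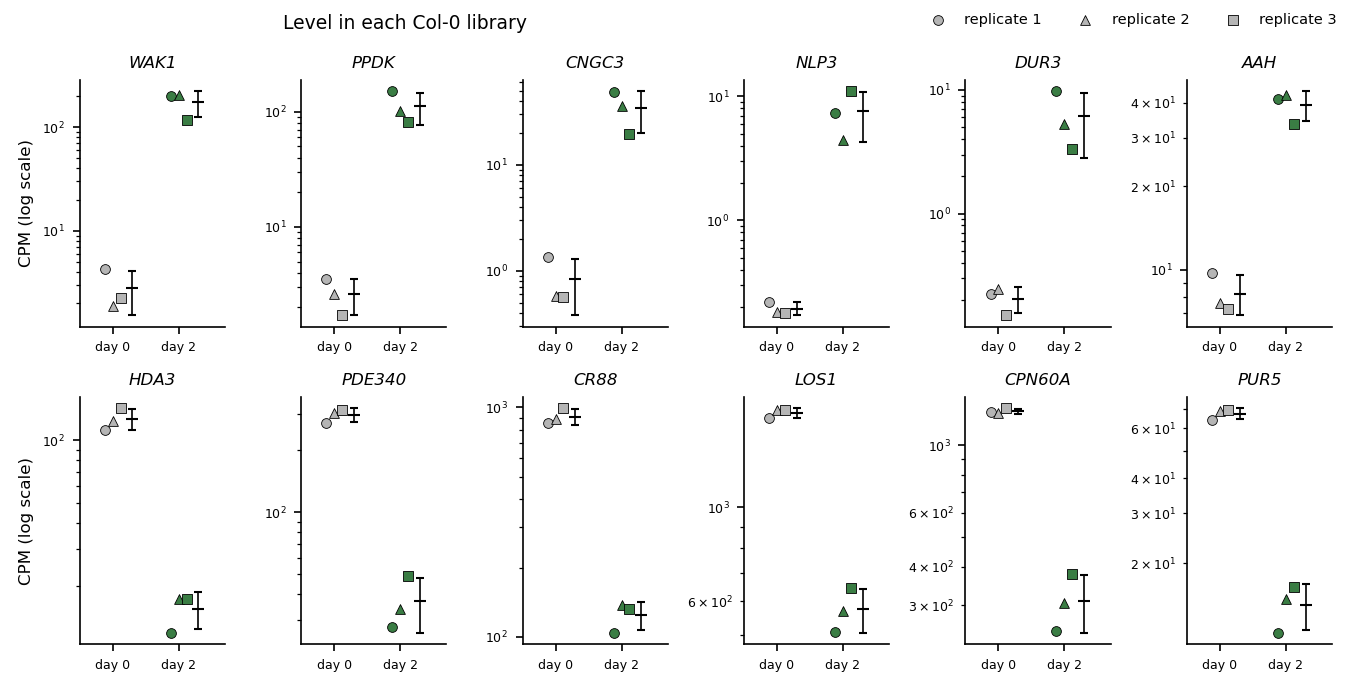
Level of 12 genes in each Col-0 library, in CPM on a log scale that differs between panels; circles, triangles and squares are replicates 1, 2 and 3, and the bar at the side of each day is the mean with its SD (n = 3). The upper row shows 6 genes that rose and the lower row 6 that fell, and the days do not overlap in any of the 12.

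Some genes were read at one day only. With 0 reads in the 3 libraries of a group, the fold is given against a floor of 3 counts over that group. Called genes with 0 reads at day 0 numbered 14. GolS2, galactinol synthase, the first step of raffinose synthesis, had 235 reads at day 2 and was at least 86.8-fold higher. The neighbouring exporters UMAMIT20 (chromosome 4, 5238773 to 5241112) and UMAMIT17 (chromosome 4, 5244865 to 5248394) had 127 and 123 reads and were at least 46.9-fold and 45.4-fold higher. PCR1, of the plant cadmium resistance family, and the ankyrin repeat gene AT5G15500 were at least 41.4-fold and 37.7-fold higher. In the other direction 6 called genes had 0 reads at day 2. The neighbouring genes AT4G15660, AT4G15670 and AT4G15680, annotated as thioredoxin superfamily proteins, had 187, 86 and 181 reads at day 0 and were at least 56.2-fold, 25.9-fold and 54.4-fold lower. They lie together on chromosome 4 between 8925571 and 8932317, and reads of such close paralogs are uncertain. The F-box/LRR gene AT2G42955 and the defensin-like gene AT3G59930 were at least 9.32-fold and 8.42-fold lower.

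Genes of protein synthesis were mostly lower, from tRNA charging to elongation. Aminoacyl-tRNA synthetases, which charge tRNAs, fell in 35 of 47 tested members and rose in 5 (median log2 fold change −0.80, against 0.02 over all tested genes), where 30.4% of all tested genes were lower and 29.6% higher. Translation initiation factors fell in 40 of 58 and rose in 3 (median −0.65), and elongation factors fell in 25 of 29 with none higher (median −1.20). The elongation factor family was added after the data were seen. Elongation factor genes took 1.05%, 1.11% and 1.17% of reads at day 0 and 0.400%, 0.451% and 0.475% at day 2, without overlap. An exact two-sided permutation test of these shares gives p = 0.1, the smallest that 3 against 3 libraries allow. Of 29 chloroplast and mitochondrial ribosomal protein genes 22 fell and 3 rose (median −0.74), and of 32 genes with a nuclear RNA polymerase in their product name 20 fell and 1 rose (median −0.44). Not all of these encode subunits: AT2G34750, an RNA polymerase I initiation factor, and AT1G53200, a TAF protein, are among those that fell.

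Single members are named by smallest p among those whose days did not overlap. EIF3A, the large subunit of initiation factor 3, stood at 286, 293 and 307 CPM at day 0 and 109.6, 116 and 125 CPM at day 2 (−1.33 with SE 0.10, edgeR adjusted p = 2.85e-07). EIF3C (−1.25, SE 0.10) and EIF3E (−1.27, SE 0.08), which sit in the same complex, fell by similar amounts. ATKRS-1, lysyl-tRNA synthetase, stood at 239.8, 245 and 259 CPM at day 0 and 72.3, 85.2 and 85.3 CPM at day 2 (−1.62 with SE 0.11, edgeR adjusted p = 1.77e-07). OVA1, the methionyl-tRNA synthetase of the organelles, fell from 168 ± 5.67 to 60.1 ± 7.73 CPM (−1.48, SE 0.11). In each of these genes the replicates of a day lay close together, which picking by smallest p favours. The plastid ribosomal protein L3 gene RPL3P (−1.69, SE 0.11), the mitochondrial ribosomal protein gene AT3G59650 (−1.55, SE 0.17), and the RNA polymerase subunit genes ATRPAC42 (−1.72, SE 0.11) and AT3G13940 (−1.81, SE 0.13) fell too. Against the trend, AT3G16565, which holds a threonyl and alanyl tRNA synthetase domain, rose from a low level, from 1.65 ± 0.339 to 5.56 ± 0.903 CPM (1.75, SE 0.20).

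Chaperonins and organelle RNA factors fell in most members, where 30.4% of all tested genes fell and 29.6% rose. Of 19 genes matched by name to TCP-1 and cpn60 chaperonins, which fold new proteins in closed chambers, 17 fell and 1 rose (median −1.06). This family was added after the data were seen. Its share of reads went from 0.647% ± 0.041 to 0.213% ± 0.026 (SD, n = 3), with an exact permutation p = 0.1, the smallest possible. CPN10, the mitochondrial co-chaperonin, fell from 118 ± 6.32 to 32.5 ± 3.41 CPM (−1.86 with SE 0.14, edgeR adjusted p = 3.42e-07). The matched member that rose was RbcX2, an assembly chaperone of Rubisco, from 57.4 ± 4.97 to 71.2 ± 5.59 CPM (0.31 with SE 0.09, edgeR adjusted p = 0.0074). Pentatricopeptide repeat proteins bind, cut and edit organelle RNAs. Of 258 tested genes of this family 205 fell, 136 of them at least 2-fold, and 3 rose (median −1.07). AT1G08610, with the smallest p of the family (AT1G08610, chromosome 1, 2733596 to 2735819), stood at 22.2, 22.9 and 23.8 CPM at day 0 and 4.26, 3.80 and 4.08 CPM at day 2 (−2.50 with SE 0.10, edgeR adjusted p = 9.66e-09). Its 6 values form tight clusters, more than 5-fold apart. AT5G46580 (−1.85, SE 0.12) and AT4G21880 (−1.71, SE 0.10) fell also, and AT3G59300 (0.84, SE 0.10) and AT4G22758 (1.02, SE 0.20) were among the 3 that rose. The chloroplast thioredoxin TRX z and the nucleoid protein MRL7-L, both needed for plastid transcription, fell, with log2 fold changes of −1.74, SE 0.18 and −2.05, SE 0.13. Another chloroplast thioredoxin gene, ACHT5, fell from 34.3 ± 4.61 to 5.93 ± 0.772 CPM (−2.53, SE 0.21), within a family of 96 thioredoxins and protein disulfide isomerases in which 33 rose and 35 fell (median 0.02; sign not stable over the alternatives).

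Groups of protein breakdown and energy complexes had medians nearer to 0. Their counts stand beside 29.6% higher and 30.4% lower over all tested genes. Of 30 genes with proteasome in their product name 17 fell and 2 rose, none by 2-fold (median −0.22). AT2G32730, a subunit of the regulatory particle, fell from 177 ± 3.18 to 126 ± 4.48 CPM (−0.49 with SE 0.07, edgeR adjusted p = 7.74e-05), and PA200, a proteasome activator, rose from 50.2 ± 3.82 to 77.8 ± 7.12 CPM (0.63 with SE 0.10, edgeR adjusted p = 0.000139). PAA2, a core particle subunit, was 0.24, SE 0.07, and lost its call without day 0 replicate 2 (adjusted p = 0.0555) or day 2 replicate 2 (0.0503). DnaJ and heat shock proteins fell in 68 of 193 genes, or 35.2%, near the share of all genes, and rose in 31 (median −0.20). F-box proteins fell in 27 and rose in 35 of 169 (median 0.07). These are 16.0% and 20.7%, below the shares of all genes both ways. Genes with a mitochondrial respiratory complex in their product name fell in 16 and rose in 12 of 75 (median 0.04), or 21.3% and 16.0%. Assembly factors and chaperones are counted among the latter, and 4 of them, AT1G04900, AT5G51220, COX15 and COX17, fell. The medians of the F-box and the respiratory family each reach 0 or below in some of the alternatives.

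**Figure D3:**
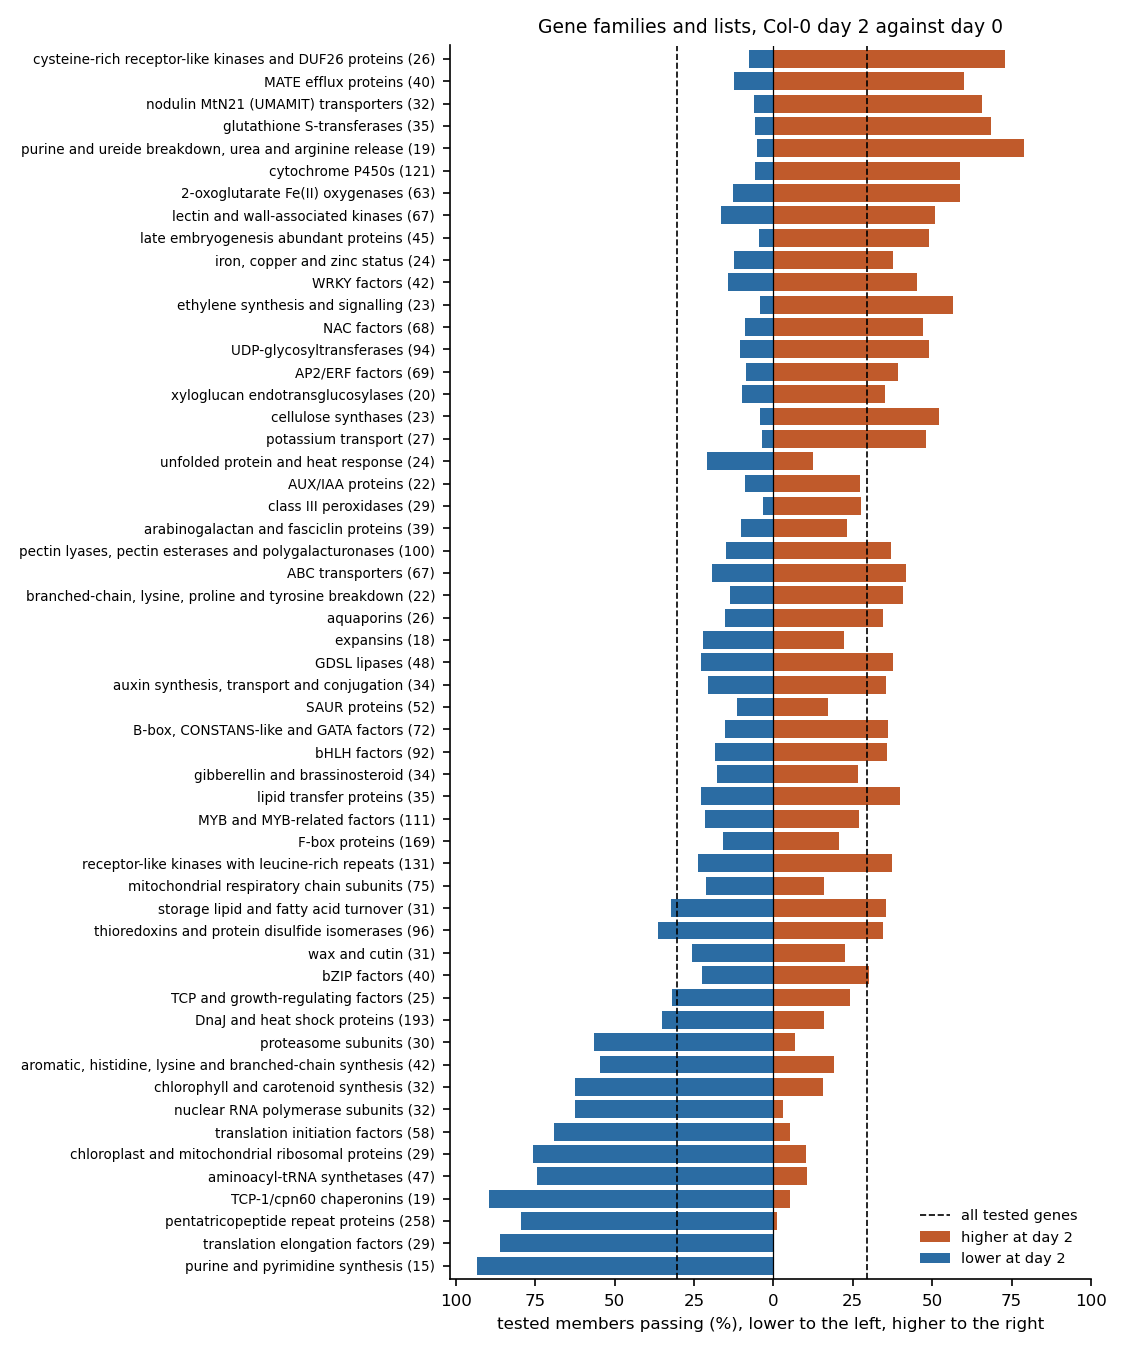
Share of tested members that passed as higher (right) or lower (left) at day 2 for each gene family and list, with the number tested in brackets; dashed lines mark the shares over all tested genes, 29.6% higher and 30.4% lower. Groups are ordered by median log2 fold change. Nucleotide synthesis, translation elongation, pentatricopeptide repeat proteins and chaperonins lie at the lower end, and cysteine-rich receptor-like kinases, MATE and UMAMIT exporters and glutathione S-transferases at the upper end, while kinases with leucine-rich repeats lie near the middle. Families are matches of product names, so those labelled as subunits also hold assembly and initiation factors. The chaperonin and elongation factor families were added after the data were seen, so their place in the order is no independent result.

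Promoters of genes that fell held some short elements in larger shares than those of genes that rose. A promoter is taken as the 250 bases before to 50 bases after the annotated start, read from the RefSeq Arabidopsis genome for 19347 tested genes, and motifs were searched by exact letters on both strands. The telo-box, AAACCCTA, stood in 17.3% of promoters of genes at least 2-fold lower, in 2.27% of those at least 2-fold higher and in 5.60% of all tested. The site II element, TGGGCC, stood in 32.2%, 9.14% and 19.4%. Both are known from promoters of ribosomal protein and other growth genes. Without genes whose product name holds ribosomal protein, shares among the lower genes were 14.0% for the telo-box and 28.4% for the site II element. Both motifs together were in 7.74% of promoters at least 2-fold lower, 0.353% of those at least 2-fold higher and 1.92% of all. Elongation factor promoters held the telo-box in 27.6% of cases and the site II element in 44.8%, and initiation factor promoters in 13.8% and 36.2%. Of 258 pentatricopeptide repeat promoters 9.69% held the telo-box and 61 the site II element. Aminoacyl-tRNA synthetase promoters held the telo-box in 6.38% of cases, closer to the 5.60% of all tested genes. Their site II share, 23.4%, was about the same as that of the pentatricopeptide repeat family. In both families it was nearer to the 19.4% of all than in the elongation and initiation factors. Sorted into 10 equal bins by log2 fold change, telo-box shares went from 18.9% in the lowest bin to 2.12% in the highest and site II shares from 32.0% to 8.63%. The E2F site TTCCCGCC, an element of cell cycle promoters, was in 2.54% of promoters at least 2-fold lower and 0.202% of those at least 2-fold higher. Without the 50 bases after the start, the share among the lower genes was 8.68% for the telo-box and 1.52% for the E2F site, against 3.66% and 0.584% of all.

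Elements more frequent among genes that rose differed less. The abscisic acid response element (ABRE), ACGTGGC, stood in 6.26% of promoters at least 2-fold higher, 4.22% of those at least 2-fold lower and 4.82% of all. The G-box CACGTG, which shares the letters ACGTG with the ABRE and can overlap with it, stood in 11.2%, 6.76% and 8.87%. TTGACC, a form of the W-box bound by WRKY factors, stood in 15.5%, 12.9% and 14.3%. Other forms of the W-box were not searched, so these are not shares of all W-boxes. The TGA factor palindrome TGACGTCA was in 1.36%, 0.573% and 0.708%, and the evening element AAAATATCT in 3.69%, 2.46% and 3.07%. The I-box GATAAG was in 15.8%, 15.5% and 15.0%, and the TATA box TATAAA in 54.7%, 49.5% and 50.6%. A match is a description of letters, not of a bound site.

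**Figure D4:**
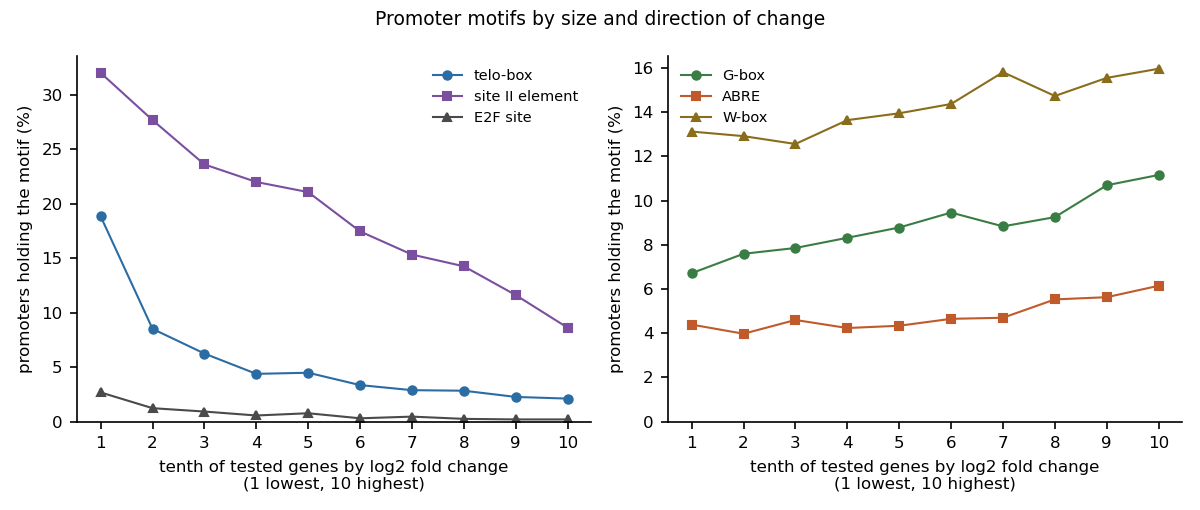
Share of promoters that hold each motif, in percent, for tested genes sorted into 10 equal groups by log2 fold change (1 lowest, 10 highest). Telo-box shares go from 18.9% to 2.12% and site II shares from 32.0% to 8.63%, and the slopes of the G-box, ABRE and W-box shares are shallower and upward. The W-box was searched as TTGACC alone.

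The following 250 bases before the start are shown for 6 genes because they carry these elements near genes that moved, 3 with a telo-box and a site II element and 3 with an ABRE. Capitals mark the telo-box and site II element in the first 3 and the ABRE in the last 3, on either strand; other motifs are left in lower case. Coordinates are those of the TAIR10.1 assembly of RefSeq, in which 36794 of 36810 matched genes have the start and end of the deposited tables, and sequences run 5′ to 3′ on the strand of the gene. AT1G08610, the pentatricopeptide repeat gene above (chr1:2735820-2736069, minus strand), emb2742, a CTP synthase of pyrimidine synthesis (chr3:4024358-4024607, minus strand), and AT2G37600, a ribosomal protein L36e gene (chr2:15775375-15775624, minus strand), fell. BAM6, a beta-amylase (chr2:13717003-13717252, minus strand), SPD1, a nucleoside triphosphatase needed for seedling chloroplasts (chr3:3238746-3238995, plus strand), and TPPE, a trehalose phosphate phosphatase (chr2:9436659-9436908, minus strand), rose.
AT1G08610: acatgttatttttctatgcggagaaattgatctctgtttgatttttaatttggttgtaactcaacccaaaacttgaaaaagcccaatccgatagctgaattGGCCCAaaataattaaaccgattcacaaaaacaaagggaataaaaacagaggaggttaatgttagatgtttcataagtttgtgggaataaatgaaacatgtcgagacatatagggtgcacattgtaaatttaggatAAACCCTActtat
emb2742: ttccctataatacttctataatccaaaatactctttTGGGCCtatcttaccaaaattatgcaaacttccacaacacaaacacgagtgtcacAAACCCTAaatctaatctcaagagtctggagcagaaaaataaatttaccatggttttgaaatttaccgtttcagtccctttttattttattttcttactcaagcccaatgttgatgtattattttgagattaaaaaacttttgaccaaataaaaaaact
AT2G37600: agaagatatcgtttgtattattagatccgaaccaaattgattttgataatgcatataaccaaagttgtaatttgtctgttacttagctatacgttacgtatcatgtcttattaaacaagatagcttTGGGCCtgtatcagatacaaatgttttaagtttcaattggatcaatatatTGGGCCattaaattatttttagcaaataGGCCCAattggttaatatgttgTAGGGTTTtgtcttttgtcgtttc
BAM6: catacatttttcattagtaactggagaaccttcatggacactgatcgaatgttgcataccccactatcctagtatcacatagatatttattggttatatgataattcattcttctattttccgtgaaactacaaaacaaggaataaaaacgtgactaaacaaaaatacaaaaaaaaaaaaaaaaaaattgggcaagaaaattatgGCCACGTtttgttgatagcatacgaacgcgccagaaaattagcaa
SPD1: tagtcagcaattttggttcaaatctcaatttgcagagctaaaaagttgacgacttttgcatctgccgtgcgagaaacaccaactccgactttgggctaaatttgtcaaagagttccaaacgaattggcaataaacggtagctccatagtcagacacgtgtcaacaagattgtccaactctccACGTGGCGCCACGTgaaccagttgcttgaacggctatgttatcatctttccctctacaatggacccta
TPPE: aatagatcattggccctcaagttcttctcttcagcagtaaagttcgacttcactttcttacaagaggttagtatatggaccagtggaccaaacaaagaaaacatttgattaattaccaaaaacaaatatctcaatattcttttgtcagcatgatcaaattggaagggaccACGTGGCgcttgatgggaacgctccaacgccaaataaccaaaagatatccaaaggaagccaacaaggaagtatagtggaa

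These 6 genes were chosen as those of smallest p with the elements, among genes at least 2-fold changed whose days did not overlap. Levels of emb2742 were 109.7, 118 and 119 CPM at day 0 and 34.3, 38.4 and 39.1 CPM at day 2 (−1.63 with SE 0.09, edgeR adjusted p = 5.41e-08), and those of AT2G37600, whose promoter holds 1 telo-box and 3 site II elements, were 93.4, 98.6 and 101 CPM at day 0 and 15.2, 18.8 and 20.1 CPM at day 2 (−2.44, SE 0.14). BAM6 stood at 0.443, 0.517 and 0.479 CPM at day 0 and 8.68, 6.57 and 5.80 CPM at day 2 (3.86 with SE 0.24, edgeR adjusted p = 1.17e-07). SPD1, with 2 ABREs back to back, stood at 70.8, 61.9 and 54.3 CPM at day 0 and 248, 237 and 212 CPM at day 2 (1.90 with SE 0.12, edgeR adjusted p = 1.21e-07). TPPE rose from 7.71 to 36.1 CPM (2.23, SE 0.15). Their separation by day was thus a condition of the choice.

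Most listed genes of nucleotide synthesis fell, and most on a list of purine and ureide breakdown, urea and arginine release rose. Over all tested genes 29.6% rose and 30.4% fell. Building a purine ring takes nitrogen from glutamine, glycine and aspartate, and its breakdown through urate and allantoin returns that nitrogen as ammonium and urea. The 27 symbols listed for purine and pyrimidine synthesis gave only 17 matched genes, so the list does not cover the whole pathway. Of the 15 tested 14 fell and none rose (median −1.25). The share of reads of the matched genes went from 0.169%, 0.179% and 0.188% at day 0 to 0.065%, 0.071% and 0.075% at day 2. PUR5, which closes the first ring of the purine, stood at 64.4, 68.9 and 69.7 CPM at day 0 and 11.3, 14.9 and 16.5 CPM at day 2 (−2.25 with SE 0.14, edgeR adjusted p = 1.17e-07). The purine enzymes PUR2 (−1.17, SE 0.07) and PUR4 (−1.25, SE 0.09) and CARB, the large subunit of carbamoyl phosphate synthetase (−1.34, SE 0.10), fell with it. Of 19 tested genes on the list of purine and ureide breakdown and of urea and arginine release 15 rose, 1 fell and 3 did not pass (median 0.76). Not all encode breakdown enzymes: the largest rise on the list, 4.88, is that of the urea importer DUR3. AAH, which frees ammonium from allantoate (AT4G20070, chromosome 4, 10861382 to 10864765), stood at 9.75, 7.63 and 7.24 CPM at day 0 and 41.4, 42.6 and 33.7 CPM at day 2 (2.26 with SE 0.16, edgeR adjusted p = 3.04e-07). ALN, allantoinase, the step before it, stood at 31.6, 28.5 and 24.6 CPM at day 0 and 132, 126 and 107 CPM at day 2 (edgeR adjusted p = 2.43e-07). In both genes each day 2 library lay more than 3-fold above each day 0 library.

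Other steps of breakdown rose less. UOX, urate oxidase, rose from 14.2 ± 0.114 to 30.1 ± 2.80 CPM (1.08, SE 0.08), and PYD1, which opens pyrimidine catabolism, rose from 26.4 ± 1.54 to 63.1 ± 1.71 CPM (1.26, SE 0.09). XDH2, a xanthine dehydrogenase whose paralog XDH1 lies next to it, was the member that fell, from 59.3 ± 2.45 to 37.3 ± 8.21 CPM (−0.67 with SE 0.18, edgeR adjusted p = 0.00696). DUR3, the high-affinity urea importer, stood at 0.222, 0.243 and 0.150 CPM at day 0 and 9.77, 5.30 and 3.31 CPM at day 2 (4.88 with SE 0.67, edgeR adjusted p = 8.73e-05). Its 3 day 2 values span almost 3-fold, all of them far above day 0, and DUR3 is named here after its values were seen.

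**Figure D5:**
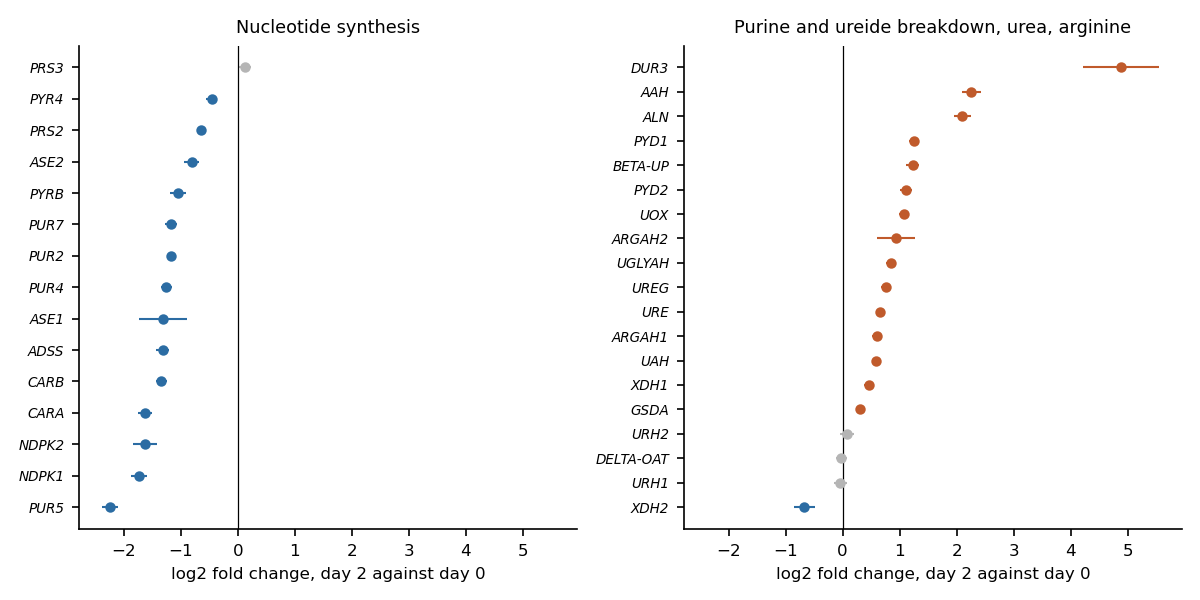
Fitted log2 fold change (day 2 against day 0) with its SE for the tested genes of purine and pyrimidine synthesis (left) and of purine and ureide breakdown, urea and arginine release (right); red marks genes that rose, blue genes that fell and grey genes that did not pass. On the left 14 of 15 lie below 0 and passed, and on the right 15 of 19 lie above 0 and passed.

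Amino acid synthesis fell more often than it rose, where 29.6% of all tested genes rose and 30.4% fell. Of 42 tested genes that make aromatic amino acids, histidine, lysine and branched-chain amino acids 23 fell and 8 rose (median −0.28). DHDPS2, the entry to lysine synthesis, stood at 65.0, 66.1 and 75.7 CPM at day 0 and 17.0, 17.7 and 18.3 CPM at day 2 (−1.96 with SE 0.10, edgeR adjusted p = 4.9e-08). The histidine synthesis gene AT-IE (from 55.7 to 13.9 CPM) and OMR1, threonine deaminase of isoleucine synthesis (−1.43, SE 0.09), also fell, while ADT5, an arogenate dehydratase of phenylalanine synthesis, rose from 12.2 ± 3.66 to 37.0 ± 5.39 CPM (1.60, SE 0.19). Breakdown of branched-chain amino acids, lysine, proline and tyrosine was mixed, with 9 of 22 genes higher, 3 lower and 10 not passing (median 0.24). HGO, homogentisate dioxygenase of tyrosine breakdown, rose from 13.9 ± 2.32 to 28.8 ± 4.51 CPM (1.05, SE 0.16), as did the tyrosine aminotransferase gene TAT7 (0.86, SE 0.11) and the glutamate dehydrogenase gene GDH1 (0.99, SE 0.15). MCCA, a carboxylase subunit of leucine breakdown, was −0.42, SE 0.12 (edgeR adjusted p = 0.00806), and without day 0 replicate 1 it was −0.26 with an adjusted p of 0.0690.

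Pigment synthesis fell in most members, beside 30.4% lower and 29.6% higher over all tested genes. Of 32 genes of chlorophyll and carotenoid synthesis 20 fell and 5 rose (median −0.31). GSA1, which makes aminolevulinate from glutamate semialdehyde, fell from 342 ± 9.80 to 143 ± 19.7 CPM (−1.26 with SE 0.14, edgeR adjusted p = 5.56e-06). HEME2, uroporphyrinogen decarboxylase, stood at 562, 539 and 553 CPM at day 0 and 229.7, 256 and 284 CPM at day 2 (−1.10 with SE 0.12, edgeR adjusted p = 5.14e-06), and CHLI1, a subunit of magnesium chelatase, at 1072, 1029.6 and 1057 CPM at day 0 and 456, 569 and 565 CPM at day 2 (−0.99 with SE 0.11, edgeR adjusted p = 7.98e-06). Neither overlapped between days. Among carotenoid genes that rose was ABA1, zeaxanthin epoxidase, which went from 336 ± 24.6 to 649.6 ± 48.1 CPM (0.95, SE 0.11). NCED4, a carotenoid cleavage dioxygenase and no synthesis enzyme, is counted in the same list. It rose from 75.5 ± 3.55 to 204 ± 73.3 CPM (1.44, SE 0.25).

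Enzymes of specialised metabolism and detoxification rose in many members, beside 29.6% higher and 30.4% lower over all tested genes. Cytochrome P450 genes, oxygenases of many pathways, rose in 71 of 121 cases, 45 of them at least 2-fold, and fell in 7 (median 0.70), and their share of reads went from 0.245% ± 0.002 to 0.420% ± 0.047. Glutathione S-transferases rose in 24 and fell in 2 of 35 (median 0.81), 2-oxoglutarate-dependent oxygenases rose in 37 and fell in 8 of 63 (median 0.60), and UDP-glycosyltransferases rose in 46 and fell in 10 of 94 (median 0.40). CYP89A9, which oxidises chlorophyll breakdown products, stood at 9.11, 9.82 and 9.72 CPM at day 0 and 36.8, 33.3 and 33.1 CPM at day 2 (1.85 with SE 0.11, edgeR adjusted p = 1.01e-07). GSTU20 stood at 154, 149 and 155 CPM at day 0 and 408, 416 and 377 CPM at day 2 (1.39 with SE 0.09, edgeR adjusted p = 1.69e-07), and GSTF10 rose from 88.1 ± 4.04 to 245 ± 24.4 CPM (1.48, SE 0.10). UGT84A3, which makes glucose esters of hydroxycinnamic acids, stood at 13.0, 13.1 and 12.9 CPM at day 0 and 50.3, 44.1 and 51.2 CPM at day 2 (1.90 with SE 0.08, edgeR adjusted p = 2.33e-08). Spread within each day was small for these genes, which were picked by smallest p. UGT72E1, a monolignol glucosyltransferase (2.06, SE 0.15), AT2G25450, an oxygenase that modifies glucosinolate side chains (1.88, SE 0.14), and AT5G43450 of the same oxygenase family (2.69, SE 0.25) rose. The glucosyltransferases of cytokinins UGT85A1 (−1.89, SE 0.17) and UGT76C2 (−1.47, SE 0.14) and the P450 gene CYP78A8 (−2.45, SE 0.37) fell against their families.

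UMAMIT and MATE transporter genes rose in most tested members, where 29.6% of all tested genes rose and 30.4% fell. Of 32 tested UMAMIT genes, whose known members export amino acids, 21 rose and 2 fell (median 0.82), and of 40 MATE efflux genes 24 rose and 5 fell (median 0.95). UMAMIT36 stood at 4.40, 4.77 and 5.62 CPM at day 0 and 67.5, 40.5 and 33.1 CPM at day 2 (3.25 with SE 0.35, edgeR adjusted p = 1.7e-05), and UMAMIT46 rose from 21.4 ± 1.00 to 48.1 ± 6.62 CPM (1.17, SE 0.13). UMAMIT13 fell by 0.45 on the log2 scale (SE 0.11). The MATE gene AT1G73700 rose from 1.25 ± 0.238 to 5.93 ± 0.234 CPM (2.24, SE 0.20), whereas AT1G66760 of the same family fell from 12.8 ± 2.99 to 1.03 ± 0.0507 CPM (−3.63, SE 0.25). ABC transporters rose in 28 and fell in 13 of 67 (median 0.26), with the vacuolar pump ABCC2 at 0.85, SE 0.08. Aquaporins rose in 9 and fell in 4 of 26 (median 0.23). PIP3, an abundant plasma membrane aquaporin, stood at 893, 915 and 845 CPM at day 0 and 278, 285 and 474 CPM at day 2 (−1.35 with SE 0.18, edgeR adjusted p = 3.54e-05), with replicate 3 the highest at day 2. NIP6;1, a boric acid channel, rose from 2.15 ± 0.721 to 8.48 ± 0.891 CPM (1.98, SE 0.30). Potassium transport genes rose in 13 and fell in 1 of 27 (median 0.37). NHX2, which loads potassium into the vacuole, stood at 18.6, 18.5 and 18.2 CPM at day 0 and 51.4, 45.9 and 51.1 CPM at day 2 (1.42 with SE 0.10, edgeR adjusted p = 2.51e-07). CIPK23, a kinase that acts on potassium and nitrate uptake, rose (0.92, SE 0.13), and the uptake permease KT2 fell (−0.36, SE 0.09).

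Receptor-like kinases of the cell surface differed by class in their counts, beside 29.6% higher and 30.4% lower over all tested genes. Cysteine-rich receptor-like kinases and their DUF26 relatives rose in 19 and fell in 2 of 26 tested (median 1.12), and lectin and wall-associated kinases rose in 34 and fell in 11 of 67 (median 0.52). Kinases with leucine-rich repeats rose in 49 and fell in 31 of 131 (median 0.05). WAK2, a close paralog of WAK1, stood at 28.4, 31.2 and 26.7 CPM at day 0 and 172, 178 and 151 CPM at day 2 (2.54 with SE 0.18, edgeR adjusted p = 3.64e-07), and CRK19 at 15.4, 15.6 and 11.7 CPM at day 0 and 60.7, 56.5 and 54.6 CPM at day 2 (2.01 with SE 0.14, edgeR adjusted p = 1.81e-07). CRK4 rose from 0.318 ± 0.0717 to 7.46 ± 2.58 CPM (4.54, SE 0.45), CRK5 rose from 0.790 ± 0.330 to 12.8 ± 3.57 CPM (4.01, SE 0.45), and the lectin receptor kinase gene RLK, AT2G37710, rose from 23.2 ± 0.867 to 108 ± 16.5 CPM (2.22, SE 0.17). AT5G59670, a leucine-rich repeat kinase gene, stood at 1.80, 2.31 and 2.06 CPM at day 0 and 39.9, 38.3 and 26.6 CPM at day 2 (4.08 with SE 0.26, edgeR adjusted p = 2.43e-07). In WAK2, CRK19, CRK4, CRK5, RLK and AT5G59670 alike the lowest day 2 value was that of replicate 3.

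Transcription factor families, matched by product name, differed in their counts, which stand beside 29.6% higher and 30.4% lower over all tested genes. MYB and bZIP factors rose at close to the share of all genes, and TCP and growth-regulating factors fell at close to it. The WRKY family rose in 19 and fell in 6 of 42 (median 0.47; the match includes POLAR, no WRKY factor, which fell), NAC factors rose in 32 and fell in 6 of 68 (median 0.41), and AP2/ERF factors rose in 27 and fell in 6 of 69 (median 0.40). The MYB family rose in 30 and fell in 24 of 111 (median 0.10; the match includes AT1G76970, annotated as a target of Myb, which rose), bHLH factors in 33 and 17 of 92 (median 0.14), bZIP factors in 12 and 9 of 40 (median 0.01, of unstable sign), and B-box, CONSTANS-like and GATA factors in 26 and 11 of 72 (median 0.15). TCP and growth-regulating factors rose in 6 and fell in 8 of 25 (median −0.17). WRKY54, which acts in salicylate responses, stood at 1.23, 1.58 and 1.35 CPM at day 0 and 16.9, 19.1 and 16.8 CPM at day 2 (3.66 with SE 0.20, edgeR adjusted p = 6.41e-08). WRKY70, its close relative, stood at 82.7, 69.4 and 41.1 CPM at day 0 and 409, 510.1 and 414 CPM at day 2 (2.79 with SE 0.27, edgeR adjusted p = 5.52e-06). Both separated by day, with WRKY70 least even at day 0. NAC032 (2.24, SE 0.26), the ethylene response factor gene EBP (1.64, SE 0.15), the flowering bZIP gene FD (2.03, SE 0.19), the bZIP genes BZO2H1 (1.12, SE 0.10) and TGA7 (1.85, SE 0.25) and the CCT domain gene AT5G53420 (2.14, SE 0.15) rose.

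Regulators of leaf growth and of the chloroplast were among those that fell. ANT, which prolongs organ growth, fell from 25.1 ± 4.43 to 11.2 ± 1.17 CPM (−1.17 with SE 0.16, edgeR adjusted p = 3.3e-05). SPCH, which starts the stomatal lineage, fell from 17.1 ± 3.04 to 6.77 ± 0.909 CPM (−1.34, SE 0.21), and GRF9, a growth-regulating factor, fell from 2.61 ± 1.13 to 0.582 ± 0.196 CPM (−2.18, SE 0.42). CIL, related to the chloroplast import regulator CIA2, stood at 18.6, 22.5 and 20.9 CPM at day 0 and 3.75, 3.04 and 4.52 CPM at day 2 (−2.46 with SE 0.15, edgeR adjusted p = 1.19e-07). GATA17 (−1.77, SE 0.15) and WRI1, an activator of fatty acid synthesis (−1.18, SE 0.14), fell as well, and TCP15 rose (0.60, SE 0.08). CUC3, which marks organ boundaries, had 43 reads at day 0 and 2 at day 2, a ratio of 0.0515 (95% counting interval 0.00605 to 0.198).

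Cell wall genes were mixed, beside 29.6% higher and 30.4% lower over all tested genes. Cellulose synthases and their relatives rose in 12 and fell in 1 of 23 (median 0.37). CESA2 and CESA5, of the primary wall complex, rose from 135 ± 4.22 to 234 ± 24.1 CPM (0.80 with SE 0.10, edgeR adjusted p = 1.65e-05) and from 166 ± 10.1 to 282 ± 41.8 CPM (0.76 with SE 0.11, edgeR adjusted p = 7.31e-05), and CSLD5, of dividing cells, was the member that fell, from 145 ± 28.2 to 49.9 ± 13.8 CPM (−1.54, SE 0.27). Pectin lyases, esterases and polygalacturonases rose in 37 and fell in 15 of 100 (median 0.26), and xyloglucan endotransglucosylases in 7 and 2 of 20 (median 0.39), with XTH17 at 2.93, SE 0.40 and XTH15 at −2.14, SE 0.37. Expansins, which loosen walls, rose in 4 and fell in 4 of 18 (median 0.22). EXLB1 rose from 3.96 ± 0.685 to 15.1 ± 2.00 CPM (1.93, SE 0.17) and EXPA1 fell from 103 ± 13.7 to 48.9 ± 18.7 CPM (−1.07, SE 0.26). Arabinogalactan and fasciclin proteins rose in 9 and fell in 4 of 39 (median 0.27, with a sign that turns in some alternatives). Class III peroxidases rose in 8 of 29, or 27.6%, near the share over all tested genes, and fell in 1 (median 0.29). Their share of reads went from 0.113%, 0.119% and 0.128% to 0.289%, 0.270% and 0.288%. Most of that share is PRXR1, at 799, 830.5 and 885 CPM at day 0 and 2258, 2091 and 2524 CPM at day 2 (1.45 with SE 0.10, edgeR adjusted p = 2.35e-07). PRXCB rose from 44.9 ± 4.04 to 118 ± 12.3 CPM (1.39, SE 0.11).

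Hormone and stress groups gave smaller counts, to be read beside 29.6% higher and 30.4% lower over all tested genes. AUX/IAA genes (27.3%) and gibberellin and brassinosteroid genes (26.5%) rose at near that share. Ethylene synthesis and signalling genes rose in 13 and fell in 1 of 23 (median 0.44), among them EBF2, which targets the EIN3 regulator for breakdown, from 47.9 ± 0.907 to 96.8 ± 4.75 CPM (1.01 with SE 0.08, edgeR adjusted p = 3.25e-07), and the receptor gene ERS1 (1.06, SE 0.13). Auxin synthesis, transport and conjugation genes rose in 12 and fell in 7 of 34 (median 0.17). PIN7, an auxin exporter (1.07, SE 0.09), and PILS3, of a family that holds auxin in the endoplasmic reticulum (2.13, SE 0.17), rose. PIN5, at the same membrane, had 2 reads at day 0 and 98 at day 2, a ratio of 54.3 (95% counting interval 14.6 to 455). TAR2 (−0.89, SE 0.11) and YUC2 (−0.91, SE 0.18) of auxin synthesis and BRU6, a GH3 enzyme that conjugates auxin (−3.33, SE 0.65), fell. AUX/IAA repressors rose in 6 and fell in 2 of 22 (median 0.29) and SAUR genes rose in 9 and fell in 6 of 52 (median 0.15). Gibberellin and brassinosteroid genes rose in 9 and fell in 6 of 34 (median 0.13), with BEE3 (1.51, SE 0.17) and BES1 (0.92, SE 0.10) of brassinosteroid responses higher and GA3OX1 of gibberellin synthesis (−1.26, SE 0.28) and GASA4 (−0.95, SE 0.13) lower. Late embryogenesis abundant proteins rose in 22 and fell in 2 of 45 (median 0.51), with the dehydrin gene ERD14 at 189, 202 and 176 CPM at day 0 and 449, 553 and 497 CPM at day 2 (1.40 with SE 0.11, edgeR adjusted p = 3.78e-07).

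Metal and lipid genes included large single changes. Their counts stand beside 29.6% higher and 30.4% lower over all tested genes. Of 24 tested genes of iron, copper and zinc status 9 rose and 3 fell (median 0.48). MT3, a metallothionein, stood at 260.2, 203 and 177 CPM at day 0 and 973, 576 and 879 CPM at day 2 (1.92 with SE 0.20, edgeR adjusted p = 4.44e-06), and MT2A rose from 16.3 ± 0.811 to 56.7 ± 12.1 CPM (1.80, SE 0.15). CSD1, the cytosolic copper/zinc superoxide dismutase, rose from 144 ± 5.18 to 281 ± 18.8 CPM (0.96, SE 0.09). NAS3, which makes the metal chelator nicotianamine, rose from a low level, from 0.154 ± 0.0617 to 2.77 ± 0.731 CPM (4.15, SE 0.63). BHLH101, induced by iron deficiency, fell from 0.678 ± 0.531 to 0.0411 ± 0.0463 CPM (−3.85, SE 0.89), and BTS, an iron-binding repressor of that response, fell from 116 ± 12.2 to 74.5 ± 2.72 CPM (−0.63, SE 0.13). Storage lipid and fatty acid turnover had 11 genes higher and 10 lower of 31 (median 0.03). The plastid fatty acid synthesis genes MOD1 (−1.36, SE 0.17) and KASI (−0.96, SE 0.12) fell, and RD20, a caleosin of lipid droplets, rose from 6.72 ± 0.924 to 41.0 ± 3.25 CPM (2.61, SE 0.23) together with LACS7 (1.39, SE 0.14) and MFP2 (0.62, SE 0.07) of peroxisomal fatty acid breakdown. Wax and cutin genes rose in 7 and fell in 8 of 31 (median 0.02, of unstable sign), with KCS2 going from 1.20 to 2.95 CPM and CER3 at −0.50, SE 0.09. GDSL lipases rose in 18 and fell in 11 of 48 (median 0.19), and lipid transfer proteins rose in 14 and fell in 8 of 35 (median 0.13, which reaches 0 in some alternatives). The share of reads of lipid transfer proteins went the other way, from 0.322% ± 0.023 to 0.237% ± 0.053 (SD, n = 3; exact permutation p = 0.1, the smallest possible).

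Heat and unfolded protein genes varied among the libraries of a day. Their counts stand beside 29.6% higher and 30.4% lower over all tested genes. Of 24 tested genes 3 rose, 5 fell and 16 did not pass, and the list took 0.340%, 0.157% and 0.128% of reads at day 0 and 0.177%, 0.397% and 0.155% at day 2. Day 0 replicate 1 and day 2 replicate 2 were the high libraries, and the list median (0.35) ran from −0.48 to 1.21 over the alternatives. BIP2, the chaperone of the endoplasmic reticulum, fell from 225 ± 29.5 to 112 ± 17.3 CPM (−1.01 with SE 0.16, edgeR adjusted p = 0.000127), while BZIP60, the transcription factor of the unfolded protein response, rose from 24.2 ± 6.44 to 68.3 ± 15.7 CPM (edgeR adjusted p = 0.000558).

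Some called genes were uneven among the day 2 pools. NAC019, a drought and jasmonate responsive factor, stood at 0.854, 0.760 and 1.05 CPM at day 0 and 12.2, 6.06 and 2.64 CPM at day 2 (2.98 with SE 0.53, edgeR adjusted p = 0.000574). CYP71B23 stood at 0.348, 0.243 and 0.179 CPM at day 0 and 8.52, 6.54 and 2.13 CPM at day 2 (4.47 with SE 0.55, edgeR adjusted p = 2.58e-05), and GSTF7 went from 0.533 ± 0.662 to 5.70 ± 3.48 CPM (3.44 with SE 0.87, edgeR adjusted p = 0.00592). Replicate 3 was the lowest of day 2 in these 3 genes. CRK6 (4.10, SE 0.77) and AT5G52760, annotated as a copper transport protein (4.31, SE 0.62), were uneven as well. AT3G19680, of unknown function, stood at 25.5, 33.4 and 13.1 CPM at day 0 and 24.8, 48.1 and 123 CPM at day 2 (1.45 with SE 0.54, edgeR adjusted p = 0.0436). Its days overlapped, and without day 2 replicate 3 its log2 fold change was 0.64 with an adjusted p of 0.185.

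The change in Col-0 was compared with that in npf8.4-1, a mutant of NPF8.4, which encodes a vacuolar membrane protein of the NPF family. The 2 comparisons share no library. Across the 19416 genes the log2 fold changes of the 2 genotypes had a Pearson r of 0.91, a description over genes, which are not independent replicates. In npf8.4-1 64.1% of tested genes passed. Of the 4430 genes changed at least 2-fold in Col-0, 4055 passed in the same direction in npf8.4-1 and 4 in the opposite direction. The interaction, or log2 fold change of npf8.4-1 less that of Col-0, passed for 0 genes in edgeR's quasi-likelihood test (0.00%; smallest adjusted p = 0.170), while 1759 genes had an unadjusted p under 0.05 and DESeq2 called 269. Among genes changed in Col-0, CPK4, a calcium-dependent kinase, rose from 27.0 ± 1.51 to 47.0 ± 5.06 CPM (0.80, SE 0.12) and was −0.28 in npf8.4-1 (interaction −1.08, SE 0.17, edgeR adjusted p = 0.17, not passing).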

How the data were processed

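The authors deposited 1 table per library with a count of exon reads for each of 37242 genes, per the file headers. The same tables hold deposited TPM and RPKM, which were not used here because the test needs counts. Per the submitters' processing notes, the build was TAIR10 and demultiplexing used bcl2fastq 2.17.1.14. A stranded mRNA kit and TRIzol extraction were used, per the labels' protocols. Not given in the sources used here are the aligner, the annotation version, the counter and whether it used strand, so reads of antisense or overlapping genes and of close paralogs are uncertain.

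Counts of all 12 libraries entered 1 fit of 4 group means tested by quasi-likelihood in edgeR 4.0.16 (with limma 3.58.1 and R 4.3.3; TMM scaling, filterByExpr, robust dispersion), with Benjamini-Hochberg adjustment over 19416 genes and a threshold of 0.05. The contrast was Col-0 day 2 (n = 3) against day 0 (n = 3). The SE of a log2 fold change (standard error) was derived from the quasi-likelihood F. CPM is the count per 1000000 TMM-scaled reads, with the standard deviation (SD) of 3 libraries. Floors (3 counts over a group) and 95% intervals cover only counting error: PCR copies were not told apart by molecular identifiers. Shares of reads were compared by exact permutation.

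Families were found by patterns in annotated product names and lists by symbol, leaving out symbols that match another gene. Symbols that match no gene or several genes were left out too, so list counts cover only matched symbols. A family is thus a product-name match and may hold a few genes of another function. Patterns were corrected after product names were read, with values then known, and the chaperonin and elongation factor families were added after seeing the data. The members and lists, like the comparison, were chosen with earlier results of these data known. Groups are described by counts and medians, without a set test. Genes were named by rule: the 12 largest gains and losses in CPM, the 15 largest log2 changes each way with at least 5 CPM in the higher group, up to 4 members per group with the smallest p and up to 2 against its median, the 6 most abundant genes not passing, up to 5 genes each way with 0 reads at one day, the 6 called genes most uneven at day 2, the 3 with the smallest interaction p (none passing) and 6 promoter examples. All but those said not to pass and AT3G19680, whose days overlap, had an adjusted p under 0.05 and days that did not overlap. The text leaves some of these out, and DUR3 was chosen after its values were seen.

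Promoters and motifs were read with Python 3.11.15 and Biopython 1.88. No pair of replicates agreed within sampling noise (chi-square per gene 12.6 to 45.0). The fit was tested on simulated data. The alternatives were DESeq2 (1.42.0) size factors and test, library totals, other filters, a fit of the 6 Col-0 libraries, a replicate block, a test against 1.5-fold, libraries left out, and a shorter promoter.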

Additional observations from a re-analysis of the deposited data

Results flagged for a closer look

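Only the 214 named genes were scanned here, and some of these had been picked for a small interaction p. In 3 of them, which changed in Col-0, every Col-0 day 2 library lay on one side of the 3 day 0 libraries. Every npf8.4-1 day 2 library lay on the other side of its own day 0 libraries. The number is thus not a count over all tested genes. In groups of 3 libraries single outlying values were not tested. AT5G25170, a putative thiol peptidase gene of the PPPDE family, stood at 7.53, 8.79 and 8.49 CPM at day 0 and 12.4, 14.7 and 15.5 CPM at day 2 in Col-0 (0.78, SE 0.12) and changed by −0.41 in npf8.4-1. Its interaction was −1.19, SE 0.17 (edgeR adjusted p = 0.17, not passing). AT1G53430, a leucine-rich repeat kinase gene, stood at 74.6, 77.6 and 69.6 CPM at day 0 and 102, 92.7 and 106 CPM at day 2 in Col-0 (0.43, SE 0.09) and changed by −0.34 in npf8.4-1, with an interaction of −0.77, SE 0.12 (edgeR adjusted p = 0.17, not passing). MCCA, of leucine breakdown, stood at 52.2, 46.8 and 35.6 CPM at day 0 and 34.1, 32.4 and 34.3 CPM at day 2 in Col-0 (−0.42, SE 0.12) and was 0.25 in npf8.4-1, which did not pass there (edgeR adjusted p = 0.0816). Its interaction was 0.66, SE 0.17 (edgeR adjusted p = 0.217, not passing).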

How the results depend on the processing

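Counts of called genes held within 1.5 times under each alternative except a test against a 1.5-fold change (edgeR glmTreat), which left 2140 higher and 2791 lower, by its own construction. Without 1 Col-0 library the calls ran from 4928 to 6063 higher and from 5342 to 5565 lower, and at least 2-fold changes from 1794 to 2273 higher and from 2290 to 2472 lower. Of the 5753 and 5906 calls, 5473 and 5314 were shared with the fit without day 2 replicate 3, the library nearest to day 0.

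The interaction passed for 269 genes in DESeq2 and for 0 to 6 without 1 library, the 6 without Col-0 day 2 replicate 1. It cannot be taken from the 6 Col-0 libraries alone and was not run there. With 250 bases before the start alone, motif shares were 3.66% of all and 8.68% of lower promoters for the telo-box. They were 17.1% and 28.9% for the site II element and 0.584% and 1.52% for the E2F site. ABRE shares were 3.94% of all and 5.20% of higher promoters. G-box shares were 7.42% of all, 9.44% of higher and 5.73% of lower promoters. Among lower promoters, the shorter window held a telo-box in 212, against 423 in the full window, and a site II element in 706, against 786.

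Same-numbered libraries of the 2 days deviated together by r = 0.119, −0.0681 and 0.179, the last being the highest of any pair. Day 2 replicate 2 correlated best with day 0 replicate 1 (0.164). The labels give no batch, and whether libraries of one number share a batch was not tested. With a replicate block, 5437 genes were higher and 5600 lower in the fit of the 6 Col-0 libraries, and 43 interactions passed in that of 12. PSAF, EXPA1, TIP2;2, LHCA4, LHCB5, LHCA1, LHCB3 and AT3G19680 did not pass under it (adjusted p = 0.0557 to 0.437).

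Of 214 genes tried, 16 changed their call or sign in some alternative; the cause was not tested. The sign turned for 3 genes that did not pass. CAB3 came to −0.016 with the block and −0.28 without replicate 3 of both days, and ran from −0.20 to 0.19 without 1 library (−0.076 without day 0 replicate 3). CAB1 came to −0.20 without replicate 3 of both days and ran from −0.12 to 0.27. RCA came to −0.054 without replicate 3 of both days and ran from −0.084 to 0.17 (−0.012 without day 2 replicate 1). CAB2 passed as lower without replicate 3 of both days (−0.43, adjusted p = 0.0469). With library totals the median of all genes moved to 0.07 and 52.8% of calls were higher, against 49.3%. Depth limits genes of few reads: 17826 genes lay below the filter and 13407 had no read in the 6 libraries.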
